A study of Mus musculus with 8 samples.

Results

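The genes described here are 41 mouse genes of the endoplasmic reticulum (ER) that fold, modify, translocate or dispose of secretory proteins, together with the sensors and transcription factors of the unfolded protein response. They were chosen by name, with earlier results of these data known, and fall into 7 roles. The first are the lumenal chaperones, the disulfide enzymes, the ER degradation factors and the stress sensors. The others are the Sec61 translocon with its TRAP complex, the signal peptidase and the oligosaccharyltransferase. A probe set with 1 gene symbol was found for 40 of the 41, among 12393 genes with such a probe set on the array. All 40 were bright enough to be tested, among 7707 tested genes. Sec61g, the small subunit of the translocon channel, had a probe set only under several symbols, and no value is given for it. The 40 genes had 92 probe sets, 84 of them tested.

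RNA came from TTE3 cells, a mouse Sertoli cell line. It was established from mice with a transgene for the large T-antigen of simian virus 40, in a form that is sensitive to temperature. The T-antigen keeps such cells dividing, and it loses activity at the nonpermissive temperature of 39 °C. The 4 groups were cells with 0, 6, 12 and 24 h at 39 °C, and the series title calls the process temperature-induced differentiation. Each group had 2 arrays, 8 in all, and all cells of all groups carried the T-antigen transgene and came from the same line. Every comparison with 0 h changes the temperature, the time in culture and the T-antigen state together, and these cannot be told apart. In total RNA of a culture, fewer cells that express a gene and less RNA of it per cell cannot be told apart either.

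The ER lumen holds the chaperones that fold newly made membrane and secreted proteins. When unfolded proteins build up there, membrane sensors respond. Ern1 (IRE1 alpha) splices Xbp1 mRNA into a form that encodes an active transcription factor. Atf6 is cut in the Golgi to release another. Eif2ak3 (PERK) is a kinase that slows translation in general and favours that of Atf4 mRNA. Xbp1 and Atf6 protein bind ER stress response elements near the starts of chaperone genes, and Sertoli cells, which secrete much protein into the tubule, rely on this machinery.

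The promoters of 35 of the 41 genes were found in RefSeq (GRCm38.p6), the exceptions being Hyou1, Manf, Derl1, Atf6, Sec61a1 and Ssr2. The 250 bases before each start were searched on both strands for the ER stress response element ERSE, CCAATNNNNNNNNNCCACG. It was found in 8 of the 35 genes (22.9%), against 35 of 27025 genes of the whole table (0.13%) and 12 of 6335 tested genes (0.189%). The list was picked as genes of the ER and its stress response, so these shares are not independent of that choice. The shorter element ERSE-II, ATTGGNCCACG, was found in 1 of the 35, Herpud1, and in 10 of the 27025 genes (0.037%). All 9 listed genes with either element are shown, whatever their change. All 9 were among the 22 of the 35 that were higher than at 0 h at 1 or more later times. The share of all tested genes higher at 1 or more times was not counted. Of the 4 tested genes outside the list with ERSE, 1 rose. A link between the element and the change was not tested. The stretches that hold the elements are printed here. They run in the direction of transcription, with 10 flanking bases on each side. Capitals mark the fixed letters of the element, which read CGTGG and ATTGG where it lies on the other strand.
Hspa5 (chr2:34772015-34772053, plus strand, 75 to 37 bases before the start): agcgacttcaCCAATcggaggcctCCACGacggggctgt
Hsp90b1 (chr10:86705523-86705666, minus strand, 222 to 79 bases before the start): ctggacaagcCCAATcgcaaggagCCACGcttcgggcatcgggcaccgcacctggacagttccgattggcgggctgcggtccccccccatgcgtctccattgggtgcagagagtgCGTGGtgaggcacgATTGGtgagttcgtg
Calr (chr8:84847065-84847103, minus strand, 172 to 134 bases before the start): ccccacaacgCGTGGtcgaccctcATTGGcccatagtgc
Canx (chr11:50325790-50325828, minus strand, 155 to 117 bases before the start): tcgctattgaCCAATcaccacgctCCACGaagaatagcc
Dnajc3 (chr14:118937817-118937855, plus strand, 115 to 77 bases before the start): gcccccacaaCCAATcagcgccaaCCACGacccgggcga
Creld2 (chr15:88819510-88819548, plus strand, 136 to 98 bases before the start): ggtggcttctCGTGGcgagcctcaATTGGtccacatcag
Pdia6 (chr12:17266481-17266519, plus strand, 108 to 70 bases before the start): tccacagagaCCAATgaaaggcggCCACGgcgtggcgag
Syvn1 (chr19:6046522-6046560, plus strand, 54 to 16 bases before the start): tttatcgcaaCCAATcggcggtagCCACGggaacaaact
Herpud1, ERSE-II (chr8:94386367-94386397, plus strand, 62 to 32 bases before the start): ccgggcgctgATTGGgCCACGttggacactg

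Hsp90b1 held the element on both strands, and the other 7 genes held it once. Of the 35 genes with a promoter, 22 were higher than at 0 h at 1 or more later times, and 8 of these held ERSE. Of the other 13, which include Sec61g with no value, 0 held it. The difference was not tested, and the 22 and the 13 differ in role. The core CCACG alone, which is part of both elements, was in 25 of the 35 (71.4%), against 31.0% of all genes and 48.7% of tested genes, and it was in 15 of the 22 and in 10 of the 13. The element UPRE, TGACGTGG, was in Txndc5 alone, against 0.603% of all genes. A match in these letters is a description of the sequence and was not tested for binding, and the annotated start can differ from the one used in these cells. The 4 tested genes outside the list that held ERSE, named for their letters and not for their values, were Ero1b, a pancreas-rich relative of Ero1l, Alg12, Derl3 and Pan2. Ero1b rose by 0.97 ± 0.14, 1.23 ± 0.14 and 1.08 ± 0.14 on the log2 scale at 6, 12 and 24 h (limma adjusted p = 0.00122, 0.000189 and 0.000202), and Alg12, Derl3 and Pan2 passed the test at no time.

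The arrays had been scaled to a common mean of 500.0 (499.9 on 2 of them, after trimming 2% of values at each end), and their median signals lay between 138.5 and 154.7 units. The arrays of 1 time correlated with r of 0.9815 to 0.9904 and those of different times with r of 0.9458 to 0.9786, over probe sets that are not independent of each other. The actin control probe sets had 3' to 5' ratios, which grow as RNA degrades, of 1.03 to 1.133. Of 17 measured Sertoli markers, 10 were bright enough to be tested, among them Clu, Ctsl, Kitl, Gata4 and Nr5a1, while Amh, Fshr, Gdnf, Rhox5, Dhh, Cldn11 and Dmrt1 stayed under 100 units on every array. The summed Sertoli marker signal ran from 10932 to 11684 units at 0 h, 11426 to 12254 at 6 h, 10910 to 12116 at 12 h and 14838 to 15369 at 24 h. Most of the rise at 24 h was Clu and Cp. Clu had 1395 and 1337 units at 0 h and 4205 and 3323 at 24 h. Cp had 259 and 744 units at 0 h and 1742 and 1726 at 24 h. Ctsl, the largest part of the sum, had 6491 and 6494 units at 0 h and 6281 and 6444 at 24 h. Of 13 germ cell markers 12 stayed under 100 units, and the sum (528 to 698 units at 0 h, 1488 to 1519 at 24 h) followed Kit, at 1225 and 1222 units at 24 h. Of the Leydig, myoid, blood and endothelial markers, 4 of 5, 4 of 6, 5 of 8 and 5 of 5 measured stayed under 100 units, with sums of at most 355, 574, 683 and 215 units. The Leydig sum was 117 to 208 units at 0 h and 267 to 355 at 24 h, most of it Star. The part of these marker changes in the results was not tested.

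Most of the listed lumenal chaperone and disulfide genes were higher after 6, 12 and 24 h at 39 °C than at 0 h. Of 25 other lumenal folding factors, described further on, 8, 10 and 9 were higher, with 1 lower at each time. Of the 18 chaperone and disulfide genes, 12, 13 and 15 were higher at 6, 12 and 24 h and 0 lower. Of the 12 measured genes of the translocon, the TRAP complex, the signal peptidase and the oligosaccharyltransferase, 3, 2 and 1 were higher at these times and 1 was lower at 24 h, and the difference between both sets was not tested. Over the 4 times, 24 of the 40 genes changed in limma's moderated F-test at an adjusted p below 0.05, against 42.0% of all tested genes. At 6 h 17 of the 40 were higher than at 0 h and 0 lower, against 9.15% higher and 9.33% lower among all tested genes. At 12 h 19 were higher and 0 lower, against 13.3% and 12.0%. At 24 h 22 were higher and 1 lower, against 18.6% and 16.6%. The median log2 change of the 40 genes was 0.32, 0.32 and 0.37 at the 3 times, beside 0.01, 0.02 and 0.02 for all tested genes. A log2 change here is that of log2(signal + 21.9), which understates changes of dim genes, and a fold is 2 to its power. The 3 comparisons share the 0 h arrays. The count at 6 h was 9 without 0 h replicate 1 and 9 without 0 h replicate 2. The count at 12 h was 12 without 0 h replicate 1.

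The genes were sorted by time on their brightest probe sets. Of these, 14 were higher at all 3 later times: Hspa5, Hsp90b1, Calr, Canx, Sdf2l1, Manf, Creld2, Pdia3, Pdia4, Pdia6, Erp44, Xbp1, Eif2ak3 and Rpn1. Another 4 were higher at 12 and 24 h but did not pass at 6 h (Dnajb9, Dnajb11, Herpud1 and Syvn1), and 3 at 24 h alone (P4hb, Edem1 and Derl1). Sec61b was higher at 6 h alone, Ddost at 6 and 12 h, Dnajc3 at 6 and 24 h, and Ssr1 was lower at 24 h. The other 15 passed at no time: Hyou1, Txndc5, Ero1l, Sel1l, Derl2, Atf6, Ern1, Sec61a1, Ssr2, Ssr3, Ssr4, Spcs1, Spcs2, Rpn2 and Stt3a. Other probe sets of Sel1l, Stt3a, Derl1 and Dnajc3 passed at further times, as given below, so their place in this sorting depends on the probe set. The share of all tested genes with each of these time patterns was not counted, so the pattern counts have no background beside them. Passing at one time and not at another is not a test of the difference between those times, which is given further on.

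**Figure D1:**
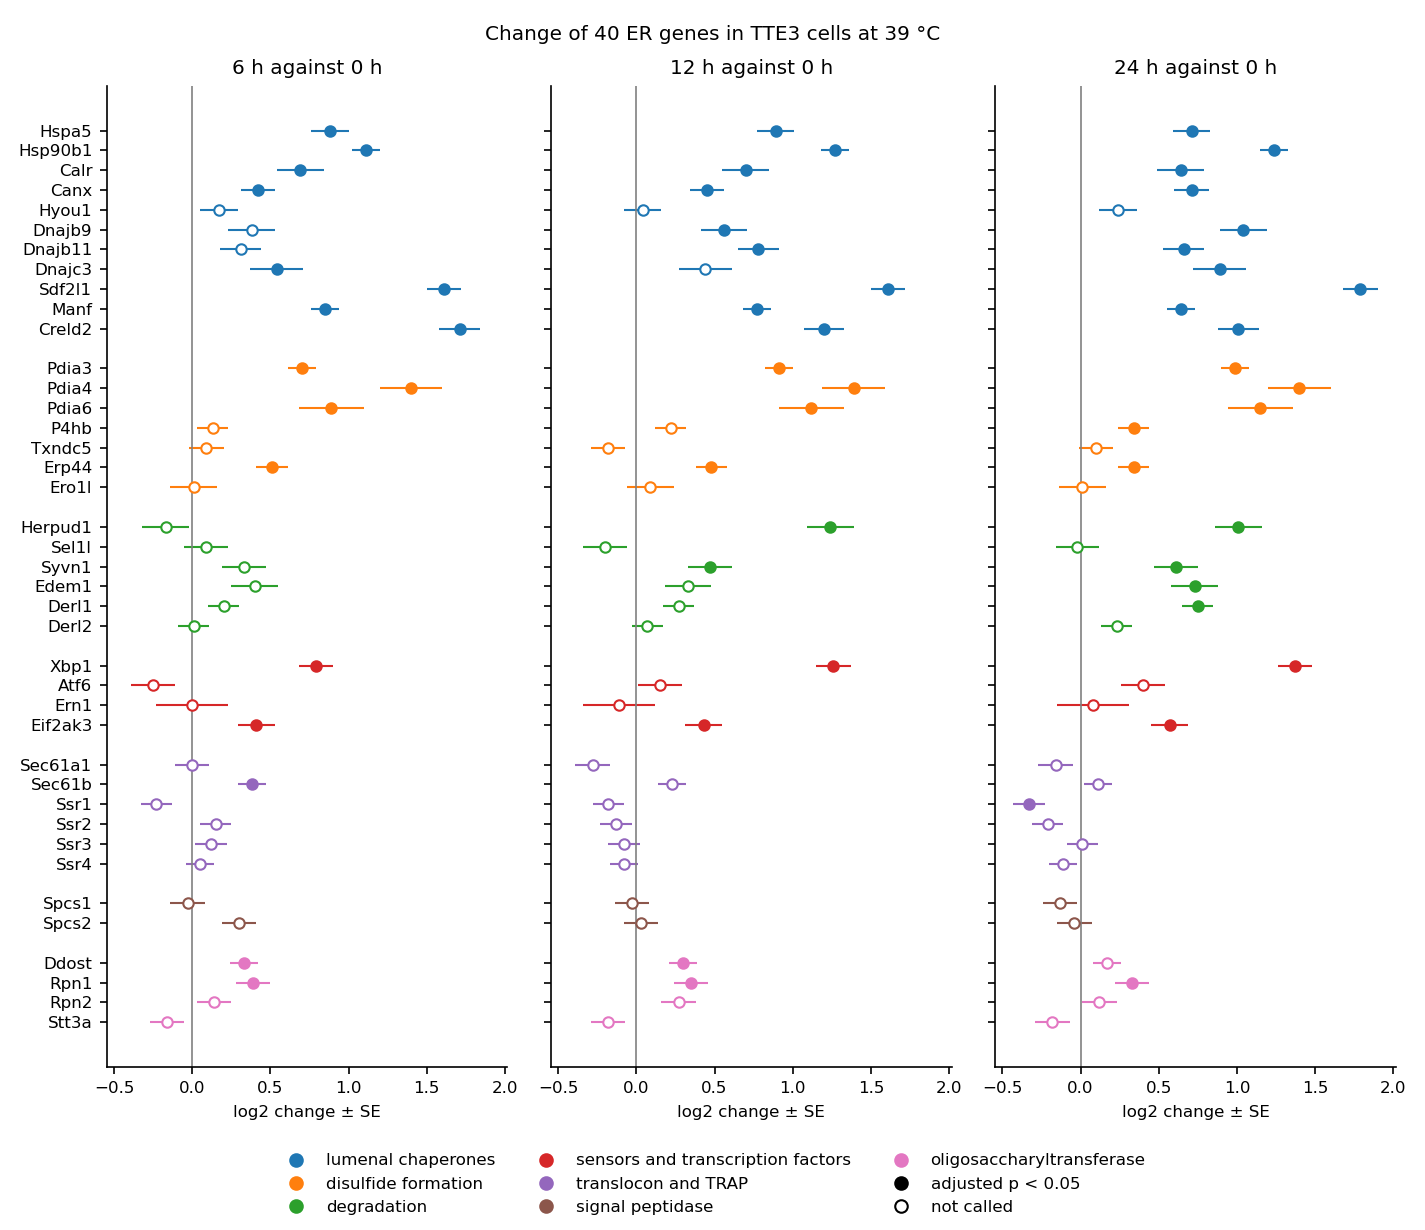
Log2 change (horizontal axis, points with bars of 1 standard error of the fit) of the 40 ER genes at 6, 12 and 24 h at 39 °C against 0 h, 2 arrays per time, coloured by role, with filled points for adjusted p below 0.05 and open points for genes not called. The chaperone and disulfide genes sit mostly right of 0, up to 1.79 for Sdf2l1 at 24 h, and the translocon and TRAP genes lie between -0.33 and 0.38.

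**Figure D2:**
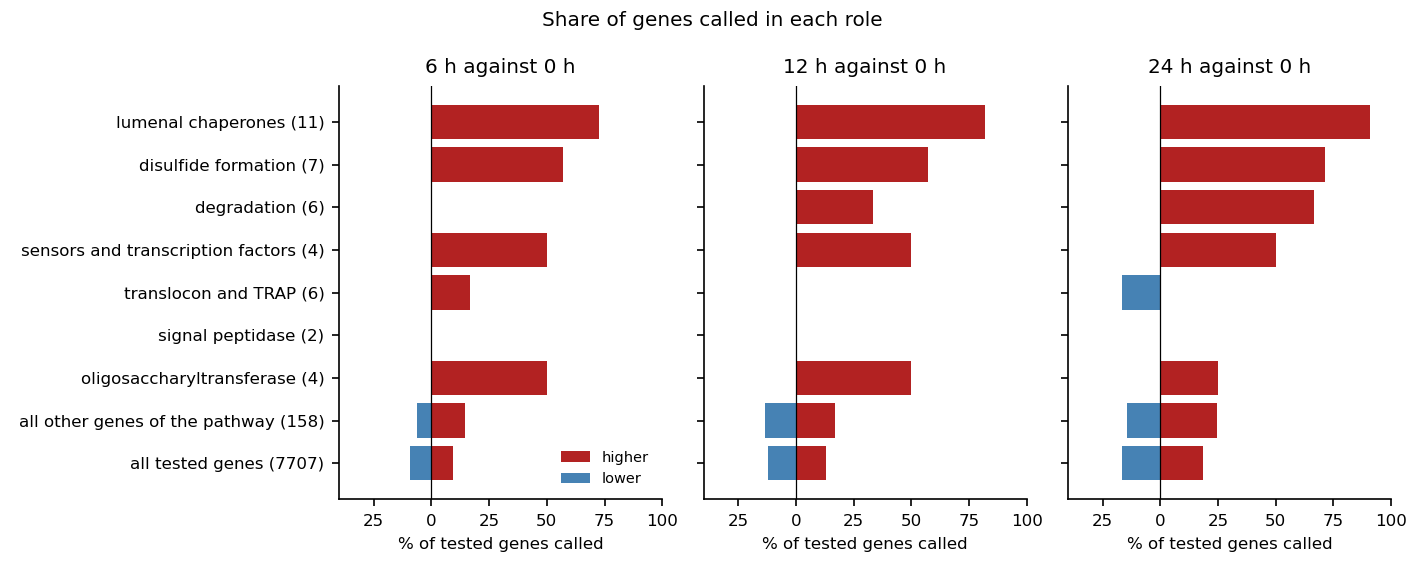
Share of tested genes called higher (red, right) and lower (blue, left) than at 0 h, in percent, for each role, for the 158 other tested genes of the ER pathway and for all 7707 tested genes, with the number of genes in parentheses. Among lumenal chaperones 8, 9 and 10 of 11 were higher at 6, 12 and 24 h, and among all tested genes 9.15%, 13.3% and 18.6%.

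The lumenal chaperones had the largest median change of the 7 roles at each later time. Of 11 genes, 8 were higher at 6 h, 9 at 12 h and 10 at 24 h, with median log2 changes of 0.69, 0.77 and 0.71. The shares of all tested genes higher at these times were 9.15%, 13.3% and 18.6%. Hspa5 encodes BiP, the main ER chaperone of the Hsp70 family and the brake on the stress sensors. Its signals were 5781 and 6357 units at 0 h, 12352 and 10161 at 6 h, 10648 and 11955 at 12 h, and 9217 and 10762 at 24 h. All 6 later arrays lay above both 0 h arrays. The change was 0.88 ± 0.12 at 6 h, 0.89 ± 0.12 at 12 h and 0.71 ± 0.12 at 24 h on the log2 scale, or 1.85-, 1.86- and 1.64-fold (limma adjusted p = 0.000844, 0.000487 and 0.00107). Hsp90b1 is the Hsp90 of the ER. Hsp90b1 had 3454 and 3404 units at 0 h, 7490.3 and 7377 at 6 h, 8799.6 and 7778 at 12 h, and 7947 and 8282 at 24 h. Its later arrays were all more than double either 0 h array, and its log2 changes of 1.11 ± 0.09, 1.27 ± 0.09 and 1.24 ± 0.09 had adjusted p = 3.03e-05, 8.69e-06 and 4.65e-06.

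Sdf2l1, an ER protein that works with the BiP cochaperone Dnajb11, had the largest log2 change of the 40 genes at 12 h and at 24 h. It had 452 and 505 units at 0 h, 1579 and 1424 at 6 h, 1493 and 1516 at 12 h, and 1831 and 1593 at 24 h. The lowest later array lay far above the higher 0 h array, and the folds were 3.05, 3.05 and 3.46 (log2 1.61 ± 0.11, 1.61 ± 0.11 and 1.79 ± 0.11, limma adjusted p = 8.36e-06, 6.44e-06 and 1.53e-06). Creld2, a secreted ER stress protein with thiol-isomerase motifs, had the largest log2 change at 6 h. It had 1180.5 and 975 units at 0 h, 3937 and 3227 at 6 h, 2494 and 2494 at 12 h, and 2375 and 2016 at 24 h. Its 6 h arrays were the highest, and the 12 and 24 h arrays lay between them and the 0 h arrays without overlap. Creld2 was up 3.28-fold at 6 h (log2 1.71 ± 0.13), 2.30-fold at 12 h (1.20 ± 0.13) and 2.02-fold at 24 h (1.01 ± 0.13), with adjusted p = 1.64e-05, 0.000128 and 0.000174. Manf is a BiP-binding protein that is secreted under ER stress. Manf had 2895 and 2928 units at 0 h, 5238 and 5272 at 6 h, 5093 and 4899.8 at 12 h, and 4826 and 4292 at 24 h. The replicates of Manf lay close together and its log2 changes of 0.85 ± 0.09, 0.77 ± 0.09 and 0.64 ± 0.09 all passed (adjusted p = 0.000183, 0.000215 and 0.000353).

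**Figure D3:**
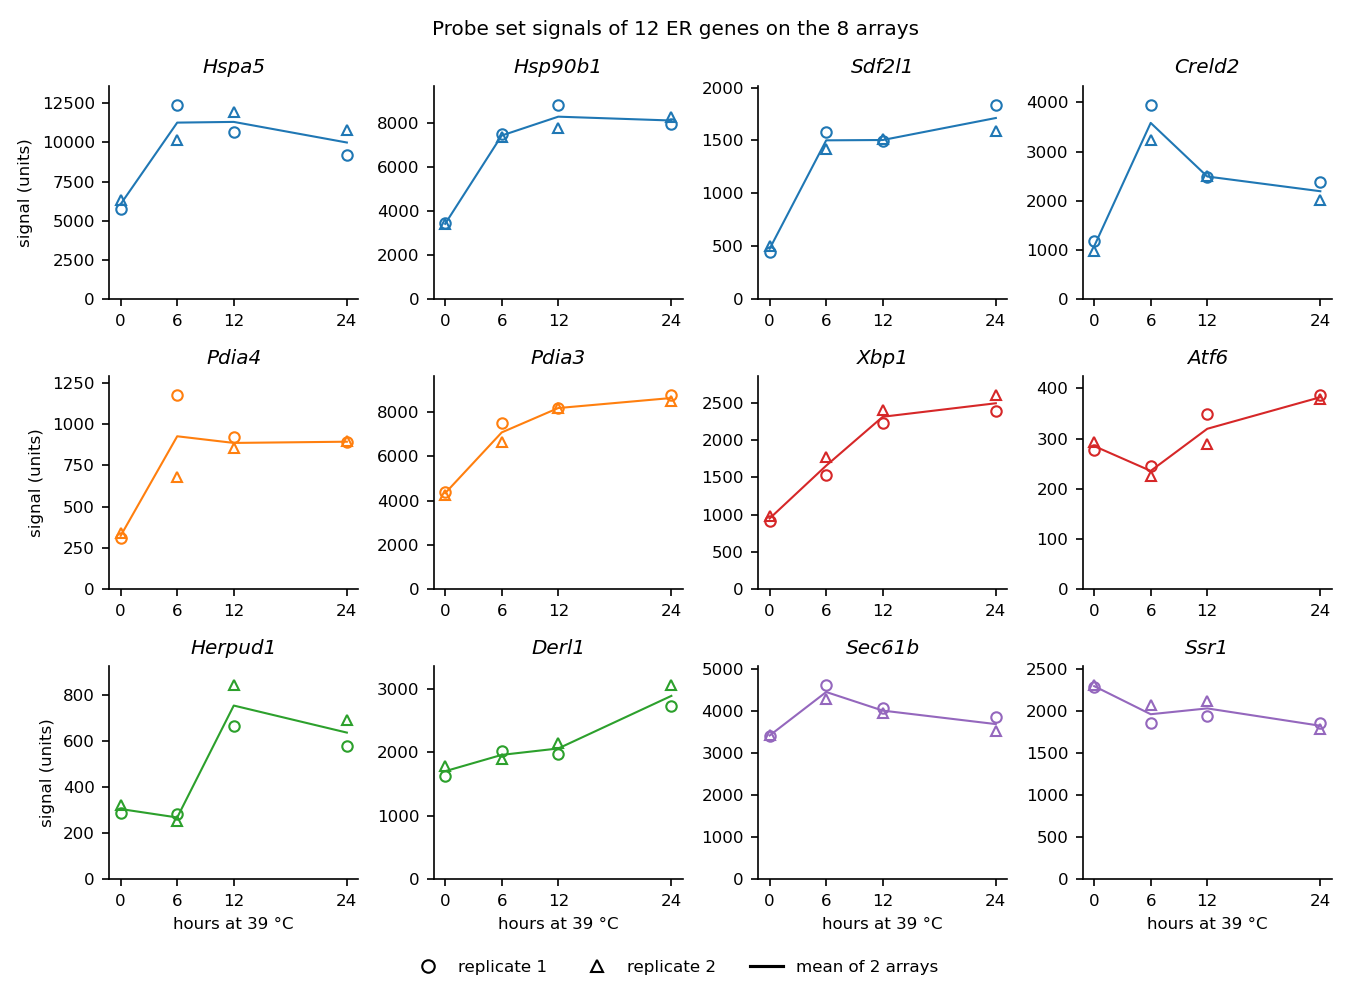
Signal in units (vertical axis, from 0) of 12 ER genes against hours at 39 °C, with 1 point for each of the 8 arrays (circles replicate 1, triangles replicate 2) and a line through the mean of the 2 arrays of each time. Hspa5, Hsp90b1, Sdf2l1, Creld2, Pdia4 and Pdia3 lie highest at the later times from 6 h on, Herpud1 from 12 h on, and Sec61b and Ssr1 stay within a narrow range; scales differ between panels and levels cannot be compared between genes.

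Calreticulin (Calr) and calnexin (Canx), the lectin chaperones that hold glycoproteins, rose at all 3 times. Calr had 3278 and 3613 units at 0 h, 4588 and 6704 at 6 h, 5491 and 5742 at 12 h, and 5072 and 5672 at 24 h. The 6 h replicates were far apart, but both lay above 0 h, and the log2 changes were 0.69 ± 0.15, 0.70 ± 0.15 and 0.64 ± 0.15 (limma adjusted p = 0.01, 0.00628 and 0.00731). Canx had 5272 and 5517 units at 0 h, 7472 and 6949 at 6 h, 6736 and 8094 at 12 h, and 9409 and 8312 at 24 h, and was highest at 24 h. Its log2 changes were 0.42 ± 0.11, 0.45 ± 0.11 and 0.71 ± 0.11 (adjusted p = 0.0231, 0.0123 and 0.000591). The other 2 Calr probe sets, beside the brightest used here, were higher at all 3 times (limma adjusted p up to 0.000915). Of the 3 Canx probe sets, 1 did not pass at any of the 3 times, with a log2 change of -0.18 at 6 h. All 3 Calr calls were lost without 0 h replicate 1 (adjusted p up to 0.0937), and that at 24 h also without 24 h replicate 2. Those of Canx at 6 and 12 h were lost without either 0 h array, without 6 h replicate 1 (6 h) and without 12 h replicate 2 (12 h), with adjusted p up to 0.161 and 0.109.

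Of the 3 J-domain cochaperones of BiP, 1 was higher at 6 h, 2 at 12 h and 3 at 24 h on their brightest probe sets. The shares of all tested genes higher at these times were 9.15%, 13.3% and 18.6%. These 3 counts are no test of an order in time, and that at 12 h depends on the Dnajc3 probe set used. Dnajb9 also binds Ern1 protein. It had 222 and 232 units at 0 h, 259 and 350.2 at 6 h, 356 and 336 at 12 h, and 479 and 502 at 24 h. It rose at 12 h (0.56 ± 0.15, limma adjusted p = 0.021) and 24 h (1.04 ± 0.15, 2.06-fold, adjusted p = 0.000413), while the log2 change of 0.38 ± 0.15 at 6 h did not pass. Dnajb11 is the partner of Sdf2l1. It had 1325 and 1291 units at 0 h, 1569 and 1694 at 6 h, 2485 and 2045 at 12 h, and 2333 and 1843 at 24 h. It did not pass at 6 h (0.31 ± 0.13, adjusted p = 0.12) and was higher at 12 h (0.78 ± 0.13) and 24 h (0.66 ± 0.13, adjusted p = 0.00165 and 0.00283). Dnajc3 is a cochaperone first described as an inhibitor of PERK-type kinases. Dnajc3 had 411 and 464 units at 0 h, 534 and 778 at 6 h, 544 and 658 at 12 h, and 778 and 882 at 24 h. Both arrays of each later time exceeded 0 h, with log2 changes of 0.54 ± 0.17 at 6 h (adjusted p = 0.0493), 0.44 ± 0.17 at 12 h (adjusted p = 0.0868, not called) and 0.89 ± 0.17 at 24 h (adjusted p = 0.00226). All 3 other Dnajc3 probe sets passed at all 3 times. The Dnajc3 call at 6 h was close to the threshold and was lost in 10 of 18 alternatives, including each array left out except 6 h replicate 1. The Dnajb9 call at 12 h was lost without either 0 h array and without either 12 h array (adjusted p up to 0.119, and up to 0.256 for Dnajc3). Hyou1, a large ER chaperone that exchanges the nucleotide on BiP, was the only lumenal chaperone that did not pass at any time. It had 602 and 560.3 units at 0 h, 674 and 638 at 6 h, 550.1 and 652 at 12 h, and 669 and 715 at 24 h, with log2 changes of 0.17 ± 0.12, 0.04 ± 0.12 and 0.24 ± 0.12, and its other 2 probe sets (up to 0.65 at 6 h) did not pass either.

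Of the 7 genes of disulfide formation, 4 rose at all 3 times, P4hb at 24 h alone, and Txndc5 and Ero1l did not pass at any. The median log2 changes of the 7 genes were 0.51, 0.48 and 0.34. The shares of all tested genes higher at 6, 12 and 24 h were 9.15%, 13.3% and 18.6%. The share higher at all 3 times was not counted. Pdia4 is a disulfide isomerase of the ER. Pdia4 had 308 and 340.4 units at 0 h, 1173 and 679 at 6 h, 919 and 852 at 12 h, and 889.8 and 896 at 24 h. The 6 h replicates of Pdia4 were far apart, and both lay well above the 0 h arrays. Its changes were 1.40 ± 0.20, 1.39 ± 0.20 and 1.40 ± 0.20 on the log2 scale, or 2.65-, 2.62- and 2.65-fold (limma adjusted p = 0.000921, 0.000596 and 0.000295). Pdia3 is the isomerase that acts with calnexin and calreticulin. Pdia3 had 4410.3 and 4259 units at 0 h, 7503 and 6639.7 at 6 h, 8169 and 8169.6 at 12 h, and 8738 and 8505 at 24 h. Its arrays were ordered by time, with no overlap between any of the 4 times, and had log2 changes of 0.70 ± 0.09, 0.91 ± 0.09 and 0.99 ± 0.09 (adjusted p = 0.00063, 7.7e-05 and 2.05e-05).

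Pdia6 is another isomerase, which also attenuates Ern1 signalling. Pdia6 had 1500.4 and 1334 units at 0 h, 2009.7 and 3463 at 6 h, 2665 and 3615 at 12 h, and 3106 and 3218 at 24 h. The 6 h replicates were far apart, and all 6 later arrays lay above 0 h, with log2 changes of 0.89 ± 0.21, 1.12 ± 0.21 and 1.15 ± 0.21 (limma adjusted p = 0.0145, 0.00308 and 0.00174). Erp44 retains unassembled proteins and Ero1 oxidases in the early secretory pathway. It had 912 and 892 units at 0 h, 1328 and 1261 at 6 h, 1284 and 1249.8 at 12 h, and 1123 and 1164 at 24 h. It was higher by 0.51 ± 0.10, 0.48 ± 0.10 and 0.34 ± 0.10 (adjusted p = 0.00484, 0.00448 and 0.0202), but its second, dimmer probe set did not pass at any time (0.23, 0.11 and -0.03), and the mean of both passed at none. P4hb is the classical protein disulfide isomerase. P4hb had 6710.4 and 6733 units at 0 h, 7049 and 7698 at 6 h, 7367 and 8381 at 12 h, and 8561 and 8517 at 24 h. The change of 0.34 ± 0.10 at 24 h passed (adjusted p = 0.017), those of 0.13 ± 0.10 and 0.22 ± 0.10 did not, nor did the F-test over the 4 times (adjusted p = 0.0569). The 6 h calls of Pdia6 and Erp44 were lost without 0 h replicate 2, that of Pdia6 also without 0 h replicate 1 (adjusted p up to 0.108 and 0.0716). The 24 h calls of Erp44 and P4hb were lost without any one of the 0 h or 24 h arrays (adjusted p up to 0.412 and 0.103 over all alternatives).

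Txndc5 is a thioredoxin-domain isomerase. Txndc5 had 1401 and 1364 units at 0 h, 1526 and 1426 at 6 h, 1314 and 1132 at 12 h, and 1527 and 1449 at 24 h. Ero1l is the oxidase that reoxidises protein disulfide isomerase. Ero1l had 246 and 249 units at 0 h, 239 and 260.5 at 6 h, 277 and 252 at 12 h, and 272 and 227 at 24 h. Neither gene passed at any time, with log2 changes between -0.18 and 0.10 for Txndc5 and between 0.01 and 0.09 for Ero1l.

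Of the 6 genes of ER degradation, 0 passed at 6 h on their brightest probe sets, 2 were higher at 12 h and 4 at 24 h. Among all tested genes 9.15%, 13.3% and 18.6% were higher at these times. The median log2 changes of the 6 genes were 0.15, 0.30 and 0.67. Calls of Edem1, Derl1 and Sel1l at the earlier times depended on the probe set, as given below. Herpud1 is a membrane protein that organises the Hrd1 ubiquitin ligase complex. Herpud1 had 287 and 324 units at 0 h, 283 and 255 at 6 h, 667 and 841 at 12 h, and 580.1 and 693 at 24 h. Both 6 h arrays lay just below the 0 h arrays, and all 4 arrays of 12 and 24 h lay well above them. Its log2 change was -0.17 ± 0.15 at 6 h (limma adjusted p = 0.467), 1.24 ± 0.15 at 12 h and 1.01 ± 0.15 at 24 h, or 2.36- and 2.01-fold at these times (adjusted p = 0.000242 and 0.000447). Its second probe set gave 0.03 at 6 h and was higher at both later times.

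Syvn1 (Hrd1) is the ubiquitin ligase of the pathway. Syvn1 had 293 and 314 units at 0 h, 417 and 359.9 at 6 h, 459 and 403 at 12 h, and 518 and 436 at 24 h. It was higher at 12 h (0.47 ± 0.14, limma adjusted p = 0.031) and 24 h (0.61 ± 0.14, adjusted p = 0.0065), and the change of 0.33 ± 0.14 at 6 h did not pass. Edem1 is a lectin that delivers misfolded glycoproteins. Edem1 had 523 and 566 units at 0 h, 785 and 668 at 6 h, 675 and 707 at 12 h, and 779.9 and 1080.2 at 24 h. Its change passed at 24 h (0.73 ± 0.15, adjusted p = 0.0035). Those of 0.40 ± 0.15 and 0.33 ± 0.15 at 6 and 12 h did not (adjusted p = 0.0917 and 0.135). The second Edem1 probe set gave -0.07, 0.41 and 0.81 at 6, 12 and 24 h and also passed at 24 h alone. The mean of both was higher at 12 h as well (0.37, adjusted p = 0.0279). Derl1 is a channel component of retrotranslocation. Derl1 had 1619 and 1783 units at 0 h, 2016 and 1899 at 6 h, 1977 and 2139 at 12 h, and 2720.4 and 3048 at 24 h. The 24 h arrays of Derl1 stood apart from all others, with a log2 change of 0.75 ± 0.10 (1.69-fold, adjusted p = 0.000257), against 0.20 ± 0.10 and 0.27 ± 0.10 at 6 and 12 h. All 4 Derl1 probe sets passed at 24 h, and 2 of them also passed at 6 h and 2 at 12 h. The mean of the Derl1 probe sets was higher at 12 h (0.47, adjusted p = 0.00347). The Syvn1 call at 12 h was lost without either 0 h array and without either 12 h array, and that at 24 h without 0 h replicate 1 and without 24 h replicate 1 (adjusted p up to 0.167 and 0.0746).

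Derl2 is a relative of Derl1. Derl2 had 1405 and 1319 units at 0 h, 1412 and 1340.2 at 6 h, 1514 and 1344 at 12 h, and 1610.4 and 1595 at 24 h. Sel1l is the adaptor of Syvn1. Sel1l had 475 and 438 units at 0 h, 439 and 541 at 6 h, 413 and 379 at 12 h, and 484 and 419.9 at 24 h on its brightest probe set. Neither passed at any time, with log2 changes up to 0.23 ± 0.10 for Derl2 at 24 h. All 3 other Sel1l probe sets were higher at 12 h (0.48 to 0.62), 2 at 24 h and 1 at 6 h. The mean of all Sel1l probe sets was higher at 12 h (0.37, limma adjusted p = 0.0248) and 24 h (0.35, adjusted p = 0.026). The call of Sel1l thus depends on the probe set used.

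Among the sensors and transcription factors, Xbp1 and Eif2ak3 rose at all 3 times and Atf6 and Ern1 passed at none. Xbp1 encodes the transcription factor made from the mRNA that Ern1 splices. Xbp1 had 916 and 983 units at 0 h, 1534 and 1777 at 6 h, 2220.1 and 2399 at 12 h, and 2385 and 2595 at 24 h. The arrays were ordered by time without overlap between 0, 6 and 12 h, and the folds were 1.72, 2.40 and 2.59 (log2 0.79 ± 0.11, 1.26 ± 0.11 and 1.37 ± 0.11, limma adjusted p = 0.000843, 2.26e-05 and 6.29e-06). All 4 Xbp1 probe sets were higher at 12 and 24 h and 3 of them at 6 h. Spliced and unspliced Xbp1 mRNA were not separated here. Eif2ak3 is the kinase that phosphorylates the initiation factor eIF2 alpha. Eif2ak3 had 323 and 303 units at 0 h, 429 and 418 at 6 h, 408 and 449.5 at 12 h, and 488 and 465 at 24 h. It was higher by 0.41 ± 0.12, 0.43 ± 0.12 and 0.57 ± 0.12 (adjusted p = 0.0369, 0.0256 and 0.0041). The 6 h call of Eif2ak3 was lost without any one of the 0, 6 or 24 h arrays, and the 12 h call without either 0 h array or 12 h replicate 2 (adjusted p up to 0.192 and 0.151). The 24 h call was kept in all 18 alternatives.

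Atf6 is the sensor that is itself the precursor of a transcription factor. Atf6 had 278 and 293 units at 0 h, 246 and 226 at 6 h, 349.8 and 289.6 at 12 h, and 386 and 379 at 24 h. The 6 h arrays were the lowest and the 24 h arrays the highest. Its log2 change was -0.25 ± 0.14 at 6 h and 0.15 ± 0.14 at 12 h, and the change of 0.40 ± 0.14 at 24 h missed the threshold narrowly (limma adjusted p = 0.050031); it passed in 10 of 18 alternatives. Ern1, the splicing sensor, was dim, with 141 and 148 units at 0 h, 132 and 160.1 at 6 h, 109 and 162 at 12 h, and 187 and 126 at 24 h. Its replicates at 12 and 24 h differed more than its times did, and its standard error of 0.23 was the largest among the 40 genes.

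**Figure D4:**
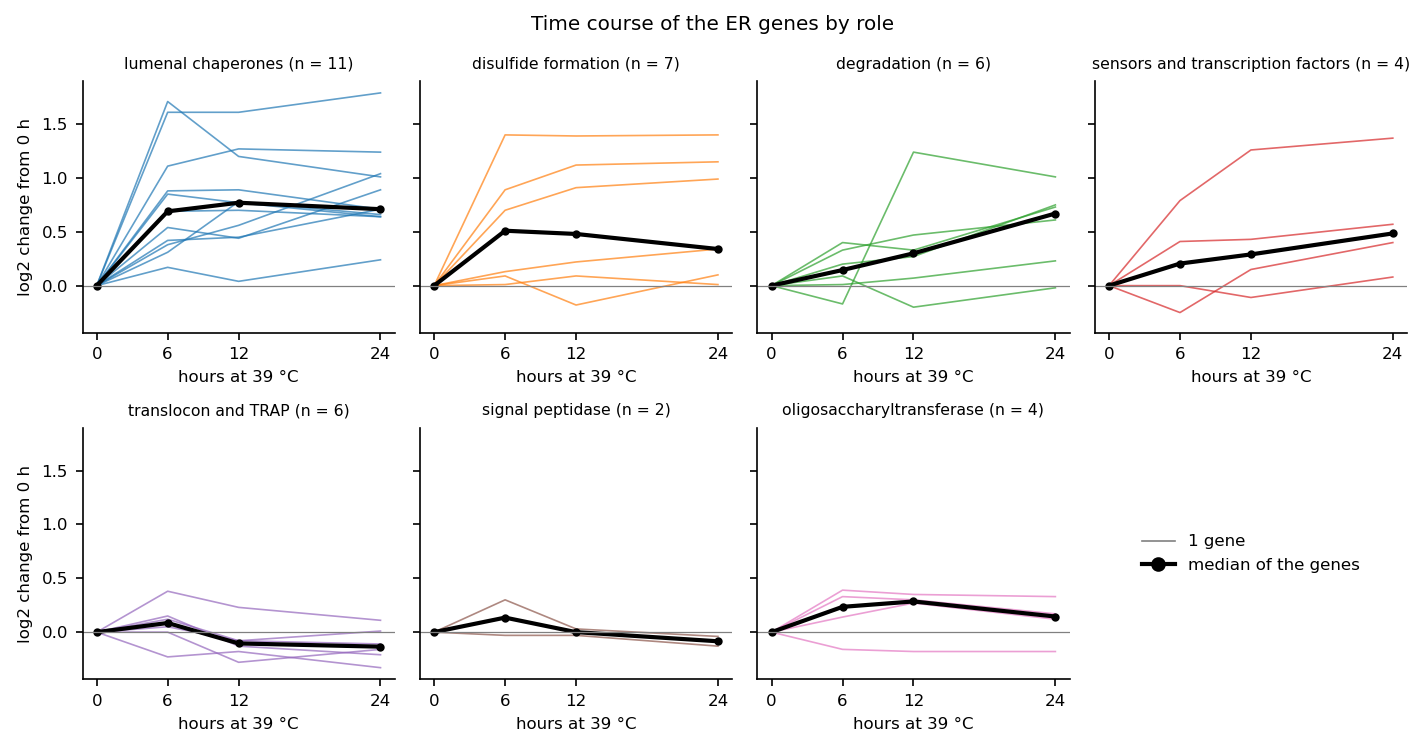
Log2 change from 0 h (vertical axis) against hours at 39 °C for each of the 40 ER genes (thin lines), in 7 panels by role, with the median of the role in black. The lumenal chaperone median stands at 0.69, 0.77 and 0.71, the degradation median at 0.15, 0.30 and 0.67, and the translocon and TRAP median at 0.08, -0.11 and -0.14.

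Of 6 measured genes of the translocon and its TRAP complex, 1 was higher at 6 h, 0 passed at 12 h and 1 was lower at 24 h. Among all tested genes 9.15% were higher at 6 h and 16.6% lower at 24 h, so that counts of 1 in 6 do not stand apart from them. The 6 genes had median log2 changes of 0.08, -0.11 and -0.14. Sec61b is a small subunit of the protein-conducting channel. Sec61b had 3404 and 3426 units at 0 h, 4602 and 4292 at 6 h, 4056 and 3956 at 12 h, and 3856 and 3514 at 24 h. It was higher at 6 h (0.38 ± 0.09, limma adjusted p = 0.016), and the changes of 0.23 ± 0.09 and 0.11 ± 0.09 at 12 and 24 h did not pass. Ssr1 is a TRAP subunit. Ssr1 had 2284 and 2300.2 units at 0 h, 1852 and 2066 at 6 h, 1937 and 2119 at 12 h, and 1856 and 1789 at 24 h. All later arrays lay below 0 h, and the change of -0.33 ± 0.10 at 24 h passed (adjusted p = 0.0246), although the other 2 of its 3 probe sets did not, nor did its F-test (adjusted p = 0.0828). The calls of Sec61b and Ssr1 were lost without either 0 h array, that of Ssr1 also without either 24 h array (adjusted p up to 0.114 and 0.285).

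Sec61a1 is the pore-forming subunit. Sec61a1 had 3707 and 3507 units at 0 h, 3879.9 and 3369 at 6 h, 2849 and 3098 at 12 h, and 3408 and 3037 at 24 h. Its mean was lowest at 12 h, with a log2 change of -0.28 ± 0.11 that did not pass (limma adjusted p = 0.0792) and none of its 6 probe sets passed at any time. The TRAP subunits Ssr2, Ssr3 and Ssr4 did not pass against 0 h either, with log2 changes between -0.21 and 0.15. Ssr2 had 1766 and 1875 units at 0 h, 1876 and 2179 at 6 h, 1705 and 1622 at 12 h, and 1599.6 and 1551 at 24 h, and its 24 h arrays lay below all others. Spcs1 and Spcs2, accessory subunits of the signal peptidase, which removes signal peptides at the translocon, did not pass against 0 h. Spcs2 had 2686 and 2881 units at 0 h, 3711 and 3157 at 6 h, 2677 and 3023 at 12 h, and 2823 and 2590.3 at 24 h, with its highest values at 6 h (0.30 ± 0.11, adjusted p = 0.0854). For Spcs1 the log2 changes lay between -0.13 and -0.03.

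In the oligosaccharyltransferase, which adds N-linked glycans to entering chains, 2 of 4 genes were higher at 6 and 12 h and 1 at 24 h. Among all tested genes 9.15%, 13.3% and 18.6% were higher at these times, so that 1 of 4 at 24 h does not stand apart. Rpn1, a subunit that hands substrates to the catalytic site, rose at all 3 times. It had 4989 and 5173 units at 0 h, 7399 and 5987 at 6 h, 6542 and 6445 at 12 h, and 6239 and 6544 at 24 h. Its log2 changes were 0.39 ± 0.11, 0.35 ± 0.11 and 0.33 ± 0.11 (limma adjusted p = 0.0277, 0.0334 and 0.0342), and of its 5 probe sets 2, 3 and 2 passed at 6, 12 and 24 h, with values down to 0.06, 0.22 and 0.17. The 3 calls were lost in 6, 10 and 7 of 18 alternatives (adjusted p up to 0.173, 0.185 and 0.18). All 3 were lost without either 0 h array and without the variance trend, and those at 12 and 24 h with median-centred arrays and without either 24 h array. Ddost is a subunit that holds the complex together. Ddost had 2988 and 3031 units at 0 h, 3915 and 3658 at 6 h, 3842 and 3585 at 12 h, and 3296 and 3486 at 24 h. It was higher at 6 h (0.33 ± 0.09, adjusted p = 0.0291) and 12 h (0.30 ± 0.09, adjusted p = 0.0339), and not at 24 h (0.17 ± 0.09). Each call was lost in 8 of 18 alternatives (adjusted p up to 0.17 and 0.175), among them leaving out either 0 h array or either 24 h array, median-centred arrays and no variance trend. Rpn2 did not pass (log2 changes of 0.12 to 0.27).

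Stt3a, the catalytic subunit, had probe sets that disagreed. The brightest had 2354 and 2293 units at 0 h, 1864 and 2315 at 6 h, 2051 and 2032 at 12 h, and 1948 and 2156 at 24 h, with log2 changes of -0.16 ± 0.11, -0.18 ± 0.11 and -0.18 ± 0.11 that did not pass. Of the other 2 Stt3a probe sets, 1 was higher at 12 h (1.05, limma adjusted p = 0.00336) and 24 h (0.95, adjusted p = 0.00398), and the other was lower at 24 h (-0.46, adjusted p = 0.0383), so no direction is given for this gene.

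Between the later times the calls among the 40 genes lay near the shares of all tested genes. At 12 h against 6 h 2 were higher and 1 lower, against 4.93% and 3.58% of all tested genes, and at 24 h against 12 h 1 was higher and 0 lower, against 4.09% and 3.27%. At 24 h against 6 h 6 were higher and 3 lower, against 14.2% and 11.7%. Herpud1 was higher at 12 h than at 6 h by 1.41 ± 0.15 on the log2 scale, or 2.66-fold (limma adjusted p = 0.000523), and still at 24 h (1.18 ± 0.15, adjusted p = 0.00027). Xbp1 was higher at 12 h than at 6 h by 0.48 ± 0.11 (adjusted p = 0.0234) and at 24 h than at 6 h by 0.58 ± 0.11 (adjusted p = 0.00252). Creld2 went the other way, with -0.51 ± 0.13 at 12 h against 6 h (adjusted p = 0.0362) and -0.70 ± 0.13 at 24 h against 6 h (adjusted p = 0.00275). These 3 genes are the ones called between 12 and 6 h on their brightest probe sets. The second Herpud1 probe set (0.74, adjusted p = 0.0188) and, in all, 3 of the 4 Xbp1 probe sets passed, and so did 1 of the 4 for Derl1 (0.48, adjusted p = 0.0162). The count was 6 without 6 h replicate 2, and 1 without either 12 h array.

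On the brightest probe sets Derl1 alone was called between 24 and 12 h, with 0.48 ± 0.10 (limma adjusted p = 0.0206). The other 3 Derl1 probe sets did not pass there (0.15, 0.22 and 0.37), and the second Herpud1 probe set did (0.69, adjusted p = 0.0279), so this call depends on the probe set. Derl1 was 0.55 ± 0.10 higher at 24 h than at 6 h (adjusted p = 0.00272). The Derl1 call at 24 h against 12 h was lost without either 12 h array or either 24 h array, when the count was 0, and the count was 3 without either 6 h array. At 24 h against 6 h Atf6 (0.65 ± 0.14, adjusted p = 0.00638), Dnajb9 (0.66 ± 0.15, adjusted p = 0.00872) and Pdia3 (0.29 ± 0.09, adjusted p = 0.0404) were also higher, and Ssr2 (-0.36 ± 0.10, adjusted p = 0.0269) and Spcs2 (-0.34 ± 0.11, adjusted p = 0.0442) were lower. The second Spcs2 probe set did not pass (-0.08, adjusted p = 0.548). Other probe sets passed at 24 h against 6 h for genes not counted there: 2 of 3 were lower for Calr (-0.30 and -0.37), 2 of 3 higher for Canx (0.40 and 0.64), 1 of 2 higher for Edem1 (0.88) and 1 of 4 higher for Dnajc3 (0.51). The count at 24 h against 6 h was 6 without either 24 h array. Hspa5 and Hsp90b1 did not pass between any of the later times, with log2 differences between -0.18 and 0.15.

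Of 190 further genes of the ER pathway in 8 lists, 158 were tested. Of these, 23 were higher and 10 lower at 6 h, 27 and 21 at 12 h, and 39 and 23 at 24 h. Of all tested genes, 9.15% were higher and 9.33% lower at 6 h, 13.3% and 12.0% at 12 h, and 18.6% and 16.6% at 24 h. The 158 genes had median log2 changes of 0.05, 0.04 and 0.08. Among 25 other lumenal folding factors 8 were higher and 1 lower at 6 h, 10 and 1 at 12 h, and 9 and 1 at 24 h. Serpinh1 is the collagen chaperone Hsp47, which cytosolic heat shock factor is known to induce. Serpinh1 had 2014 and 2039 units at 0 h, 4352 and 6385 at 6 h, 6911 and 6305 at 12 h, and 4796 and 5726 at 24 h. Every later array was more than double the 0 h arrays (1.37 ± 0.16, 1.69 ± 0.16 and 1.36 ± 0.16, limma adjusted p = 0.000244, 4.22e-05 and 7.74e-05). Qsox1, a sulfhydryl oxidase of the secretory pathway, was the folding factor that fell, by 0.64 ± 0.16, 0.62 ± 0.16 and 0.54 ± 0.16 (adjusted p = 0.0175, 0.0158 and 0.0232). Its second probe set gave -0.37 at 24 h.

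In the branch downstream of Eif2ak3, Ddit3 rose while Asns, a target of Atf4 protein, was lower at 24 h. Of 13 tested genes of the PERK and ATF4 arm, 4 were higher and 1 lower at 6 h, 4 and 2 at 12 h, and 4 and 5 at 24 h. Among all tested genes 9.15% were higher and 9.33% lower at 6 h, 13.3% and 12.0% at 12 h, and 18.6% and 16.6% at 24 h. The lower counts at 6 and 12 h lie near these shares. Ddit3 (CHOP) is the transcription factor of prolonged ER stress. Ddit3 had 612 and 614 units at 0 h, 820.0 and 916 at 6 h, 1120.1 and 1108 at 12 h, and 1011 and 879.5 at 24 h, and rose by 0.49 ± 0.11, 0.84 ± 0.11 and 0.60 ± 0.11 (limma adjusted p = 0.0129, 0.000442 and 0.00183). Nupr1, a stress-induced nuclear protein, did not pass at 6 h (-0.03 ± 0.18) and rose by 1.02 ± 0.18 and 1.39 ± 0.18 at 12 and 24 h (adjusted p = 0.00207 and 0.000174). Asns is the asparagine synthetase gene and a standard target of ATF4. Asns had 1294 and 1258 units at 0 h, 1960.4 and 1628 at 6 h, 1132 and 1111 at 12 h, and 624 and 595 at 24 h. It was higher at 6 h (0.48 ± 0.11, adjusted p = 0.0133) and lower at 24 h (-1.04 ± 0.11, adjusted p = 4.9e-05), and the difference between 24 and 6 h was -1.52 ± 0.11 (adjusted p = 7.58e-06). Atf4 mRNA itself did not pass at 6 and 12 h (-0.20 ± 0.09 and -0.09 ± 0.09) and was lower at 24 h on its brightest probe set (-0.33 ± 0.09, adjusted p = 0.0191), while its second gave -0.08.

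In the other 6 lists the counts at 24 h are read beside 18.6% higher and 16.6% lower among all tested genes, and several lie near or below these shares. The gene with the largest called log2 change at 24 h in each direction is named as an example. Among 8 tested genes of ATF6 processing and the related OASIS factors, 2 were higher and 1 lower at 24 h. Creb3l2, a membrane-bound transcription factor of secretory cells, rose by 1.19 ± 0.12 (limma adjusted p = 3.48e-05; its second probe set gave 0.43) and its relative Creb3 was lower (-0.74 ± 0.10, adjusted p = 0.000222). Among 23 other degradation factors, 7 were higher and 4 lower at 24 h, with the ligase gene March6 at 0.59 ± 0.09 and the conjugating enzyme gene Ube2j2 at -0.83 ± 0.10 (adjusted p = 0.000693 and 9.65e-05). Among 17 targeting and translocation factors, 2 were higher and 4 lower at 24 h. Sec11c, a catalytic subunit of the signal peptidase, was at 0.64 ± 0.12 (limma adjusted p = 0.00245). Get4, of the tail-anchor pathway, was at -1.03 ± 0.10 (adjusted p = 3.28e-05). The second Get4 probe set gave -0.12, so the change of Get4 depends on the probe set. Sec11c had 343 and 355 units at 0 h, 504 and 606 at 6 h, 638 and 636 at 12 h, and 537 and 574 at 24 h, and was also higher at 6 and 12 h (0.63 ± 0.12 and 0.83 ± 0.12, adjusted p = 0.00598 and 0.000848).

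Among 24 other glycosylation factors, 4 were higher and 2 lower at 24 h. Magt1, an oxidoreductase subunit of the oligosaccharyltransferase with Stt3b, was higher by 1.14 ± 0.17 and Alg5, which makes the glucose donor, was at -0.63 ± 0.10 (limma adjusted p = 0.000418 and 0.000959). Among 24 genes of COPII export and cargo receptors, 5 were higher and 4 lower, with the lectin receptor Lman2 at 0.83 ± 0.10 and the retrieval receptor Kdelr3 at -0.57 ± 0.12 (adjusted p = 0.000112 and 0.00431). Among 24 other ER stress and calcium genes, 6 were higher and 2 lower, with the stress kinase gene Map3k5 at 1.04 ± 0.23 and the ER sheet protein gene Ckap4 at -0.93 ± 0.15 (adjusted p = 0.0055 and 0.000815).

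Another scaling of the arrays shifted the balance of calls over all genes. With each array centred on its median, 38.6% of the genes called at 24 h were higher (1061 higher and 1688 lower), against 52.7% as deposited (1430 and 1282), and at 12 h 42.5% (822 and 1114), against 52.6% (1023 and 922). Of the 40 ER genes 15, 15 and 19 were then higher at 6, 12 and 24 h and 0, 1 and 2 lower, with median log2 changes of 0.30, 0.26 and 0.27. The genes that kept their calls at all 3 times in all 18 alternatives were Hspa5, Hsp90b1, Sdf2l1, Manf, Creld2, Pdia3, Pdia4 and Xbp1, and Herpud1 and Dnajb11 kept theirs at 12 and 24 h.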

How the data were processed

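RNA of TTE3 cells was measured on Affymetrix Mouse Expression Array 430A arrays (5 µg of total RNA each, per the labels). The authors deposited 1 linear intensity per probe set (0.1 to 38130.2 units). The software that made it is not given in the sources used here. Detection calls were not used. Whether both samples of a time are separate cultures is not stated, so the p-values reflect a spread that may be technical.

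Of 22690 probe sets, 64 controls were left out; 20380 of the rest had 1 gene symbol, 691 several and 1555 none here. Log2(intensity + 21.9), the offset being the 20th percentile of all values, was fitted to all 8 arrays, grouped by time, in limma 3.58.1 under R 4.3.3, using lmFit and eBayes (trend). The filter removed probe sets whose mean log2 value was below 6.584 (40th percentile), and p-values of the other 13576 were adjusted by Benjamini-Hochberg and called below 0.05. Residual and prior degrees of freedom were 4 and 7.22. Each gene is given by its brightest tested probe set, and values after ± are standard errors. Replicate numbers were not used to pair the samples in the main fit. Deviations of the replicates correlated weakly and positively between times (r of 0.05 to 0.18), and pairing was not tested. The script was tested on simulated data. Promoters were RefSeq sequences (GRCm38.p6), and gene symbols were checked against its gene table. Of the 190 other pathway genes, those named are, per list, the largest called rise and fall at 24 h, plus Ddit3 and Atf4. The genes and lists were chosen with earlier results of these data known.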

Additional observations from a re-analysis of the deposited data

How the results depend on the processing

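Of 59 called log2 changes of the ER genes against 0 h, 0 changed sign in any of 18 alternatives, and 0.5 or 2 times the offset, a stricter filter and the replicate block ended 0 of the calls. Quantile normalization ended 1, only the times compared 4, the mean of a gene's probe sets 5, no filter 7, median-centred arrays 9, no variance trend 11, and leaving out 0 h replicate 1 or 2 ended 21 or 18. The number of ER genes changed at 6 h against 0 h, 17, was 11 without the variance trend and 9 to 17 with 1 array left out. Leaving out 1 array gave 12 to 25 genes at 12 h (19 with all arrays), 17 to 24 at 24 h (23), and 16 to 28 in the F-test (24). At 12 h against 6 h the 3 genes became 1 with only the times compared, 1 without the variance trend and 1 to 6 with 1 array left out. At 24 h against 12 h the 1 gene became 3 with the mean of probe sets, 2 with only the times compared, 0 without the variance trend, 2 with the replicate block and 0 to 3 with 1 array left out. At 24 h against 6 h the 9 genes became 6 to 12 with 1 array left out. The causes were not tested, beyond the fewer arrays in those fits. With the replicate block, which the labels do not tie to a shared culture, the counts were 17, 20 and 24 at 6, 12 and 24 h against 0 h. Precision is limited by 2 arrays per time, dim genes by signal over background, and the common scaling hides any change in total mRNA.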
